A study of Homo sapiens with 14 samples.

Results

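Genes of mitosis and of the transition from G2 phase into mitosis were examined in prostate cancer cells treated with an inhibitor of the Mediator kinases. The set held 51 genes, taken by symbol from the 62703 genes of the count table. Of these, 42 passed the low-count filter and were tested among 7086 genes, and 9 were too sparse to test. RNA was measured in 14 libraries by BRB-seq, a pooled method that counts 1 tag near the 3′ end of a transcript. LNCaP, 22Rv1 and PC3 cells were grown for 3 days with SEL120-34A at 1.5 µM, an inhibitor of CDK8 and CDK19, or with dimethylsulfoxide (DMSO), the vehicle. Each arm had 3 libraries in LNCaP and in 22Rv1, and 1 in PC3. LNCaP is an androgen-dependent and enzalutamide-sensitive line, 22Rv1 is responsive to androgen but enzalutamide-resistant, and PC3 lacks the androgen receptor. The labels number the replicates without saying whether they were separate cultures. The methods of the study describe biological replicates for its experiments in general, without naming these libraries, so p-values measure the spread between the libraries given. The question was how far the inhibitor changed the level of each gene in each line.

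Entry into mitosis is driven by CDK1 bound to cyclin B, whose small CKS subunits help it to find its substrates. Aurora kinases, the chromosomal passenger complex, kinetochore proteins and kinesins then build and correct the spindle, and CDC20 switches on the anaphase-promoting complex, which marks cyclin B and securin for destruction. Many of these genes are transcribed mainly in G2 phase, under the DREAM repressor complex and the activators MYBL2 and FOXM1, through CCAAT boxes and CHR elements close to the transcription start.

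Promoter sequences of RefSeq (GRCh38.p14, from 250 bases before to 50 bases after a start) were found for 43 of the 51 genes, with 55 entries in all. There was no entry for AURKA, TPX2, ANP32E, TTK, BIRC5, UBE2C, PIMREG and CDCA2. The core of the CHR element, TTTGAA, was searched on both strands and was in 35 of the 55 entries (63.6%), against 15.2% of all 35116 promoters of that length. The CCAAT box, searched in the same way, was in 37 entries (67.3%) against 34.6% of all promoters, and both motifs were in 28 (50.9%) against 5.90%. Counted by gene, 32 of the 43 (74.4%) held TTTGAA, 32 (74.4%) held CCAAT and 26 (60.5%) held both, against 18.2%, 39.7% and 7.26% of all symbols. A match is a description of the letters and not a bound site. The stretches below run from 120 bases before to 10 bases after the start, 5′ to 3′ on the strand of the gene, and are shown for genes whose levels the results turn on and for both B-type cyclins. Capitals mark TTTGAA and CCAAT, or TTCAAA and ATTGG where the motif lies on the other strand. CDC20 is read from chr1:43358861-43358990 on the plus strand, SMC4 from chr3:160399530-160399659 on the plus strand as the first of 2 entries, JPT1 from chr17:75154503-75154632 on the minus strand as the first of 3 entries, and MKI67 from chr10:128126414-128126543 on the minus strand. CKS2 is read from chr9:89311075-89311204, CCNB1 from chr5:69167030-69167159 and CCNB2 from chr15:59105026-59105155, all on the plus strand. The same stretch of CDK1, from the first of 2 entries, held neither motif and is not shown, although both full entries held both motifs. That of BUB1, with 2 CCAAT matches and no TTTGAA, is also not shown.
CDC20: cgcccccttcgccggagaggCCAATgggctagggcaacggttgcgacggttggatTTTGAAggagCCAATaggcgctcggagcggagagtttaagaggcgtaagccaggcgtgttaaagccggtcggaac
SMC4: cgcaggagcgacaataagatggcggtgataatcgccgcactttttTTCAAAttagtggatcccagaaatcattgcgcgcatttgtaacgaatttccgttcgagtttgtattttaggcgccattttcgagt
JPT1: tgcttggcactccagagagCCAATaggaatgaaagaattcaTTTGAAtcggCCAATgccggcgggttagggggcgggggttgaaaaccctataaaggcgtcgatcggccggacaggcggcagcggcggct
MKI67: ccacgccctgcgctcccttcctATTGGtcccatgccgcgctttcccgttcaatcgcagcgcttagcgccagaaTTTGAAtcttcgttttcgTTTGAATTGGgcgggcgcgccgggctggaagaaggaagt
CKS2: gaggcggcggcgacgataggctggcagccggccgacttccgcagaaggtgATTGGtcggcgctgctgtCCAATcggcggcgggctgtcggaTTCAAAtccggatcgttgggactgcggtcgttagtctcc
CCNB1: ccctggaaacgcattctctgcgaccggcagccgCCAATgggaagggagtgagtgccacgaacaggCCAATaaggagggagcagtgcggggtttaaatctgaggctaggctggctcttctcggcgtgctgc
CCNB2: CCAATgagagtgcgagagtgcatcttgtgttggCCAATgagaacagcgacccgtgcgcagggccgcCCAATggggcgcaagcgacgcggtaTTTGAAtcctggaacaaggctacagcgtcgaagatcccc
In the entries of CDC20, JPT1, HJURP, TUBB4B and TOP2A a CCAAT box began 10 bases after the start of TTTGAA, both read along the same strand. In CDC20 the TTTGAA began at position -65 and the CCAAT box at -55, in JPT1 they began at -79 and -69, in HJURP at -111 and -101 and in TUBB4B at -242 and -232, where negative positions count back from the start. In TOP2A both lay on the other strand, with the TTCAAA beginning at -151 and the ATTGG at -160. HJURP was not called in either line (log2 fold change -0.07 for LNCaP and -0.23 for 22Rv1), nor was TOP2A (-0.02 and 0.16). The 2 matches of MKI67 to TTTGAA began at -47 and -29, and the second of them overlapped an ATTGG. In CKS2 and CCNB2 the TTTGAA match began at -29 in both, on the other strand in CKS2. The promoter of CCNB1 held CCAAT boxes at -87 and -55 and no TTTGAA, and the entry of SMC4 held TTTGAA on the other strand at -75 and no CCAAT box.

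The libraries held 246063 to 909176 counts, which gives a floor of 3.27 to 12.9 CPM for a gene with no counts (CPM are counts scaled to library size with TMM factors, and 3 counts were taken as the floor). All 22Rv1 libraries with SEL120-34A were shallower (246063 to 368778 counts) than those with DMSO (476455 to 777207), while the LNCaP arms overlapped in depth. Mitochondrially encoded transcripts made up 15.6% ± 1.67 (SD, n = 3) of counts in LNCaP with DMSO and 20.2% ± 3.45 with SEL120-34A, and 8.57% ± 1.14 and 11.4% ± 1.82 in 22Rv1. KLK3, which encodes prostate-specific antigen, had 523 to 885 counts in LNCaP with DMSO, 7 to 17 in 22Rv1 with DMSO and 7 in PC3 with DMSO. VIM had 1159 and 633 counts in the PC3 libraries and at most 34 in any other. Over 4 leukocyte markers the libraries held 0 to 3 counts, with PTPRC and CD3E at 0 in all. Over 5 fibroblast markers they held 0 to 17 counts in LNCaP and 22Rv1, with COL1A2 and DCN at 0 in all libraries, and 87 and 49 in PC3, of which COL1A1 took 85 and 49.

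Counts of the 51 genes together made up a smaller share of the library with SEL120-34A in LNCaP and 22Rv1 and not in PC3. In LNCaP the share was 0.455%, 0.468% and 0.50% in the DMSO libraries and 0.314%, 0.330% and 0.383% in the treated ones, or 0.474% ± 0.0230 and 0.342% ± 0.0357 (SD, n = 3). In 22Rv1 it was 0.588%, 0.580% and 0.611% with DMSO and 0.450%, 0.406% and 0.492% with the inhibitor, or 0.593% ± 0.0164 and 0.449% ± 0.0428. The arms did not overlap in either line, and the highest treated library was replicate 3 in both. Replicate 3 of LNCaP with SEL120-34A also had the most counts of its arm (519928) and the lowest mitochondrial share (16.5%), and their part in the result was not tested. The PC3 library had 0.506% with DMSO (95% exact binomial interval 0.491 to 0.521) and 0.521% with SEL120-34A (0.503 to 0.540). These intervals cover counting error only. In LNCaP the treated share was 0.722 times the DMSO share, and 0.679 to 0.751 times when 1 library was left out. In 22Rv1 it was 0.758 times, and 0.722 to 0.794 times when 1 library was left out. On the TMM scale used for the CPM of single genes, the fall was smaller in both lines. The set then summed to 5050 ± 178 CPM with DMSO and 3803 ± 346 with SEL120-34A in LNCaP (SD, n = 3). In 22Rv1 the sums were 5502 ± 284 and 4550 ± 248 CPM. Without mitochondrially encoded genes in the total, the means were 0.562% and 0.428% in LNCaP and 0.649% and 0.507% in 22Rv1. JPT1, TUBB4B and UBE2C supplied 36.4% of all counts of the set. Without these 3 genes the share was 0.283% ± 0.0179 with DMSO and 0.206% ± 0.0236 with SEL120-34A in LNCaP, and 0.399% ± 0.0141 and 0.300% ± 0.0283 in 22Rv1. RNA of whole cultures cannot tell fewer cells in G2 and mitosis from less of these transcripts in each cell.

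**Figure D1:**
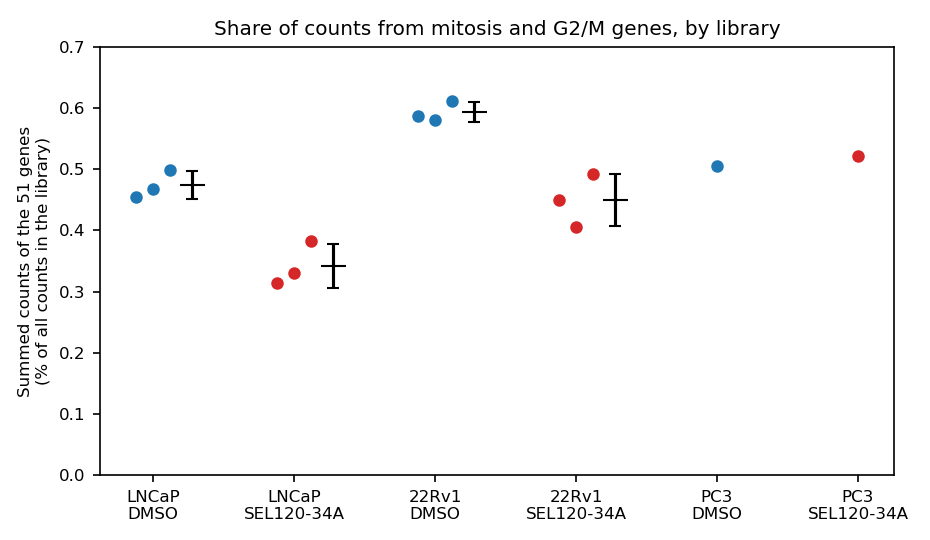
Summed counts of the 51 genes as a percent of all counts in the library (y axis, starting at 0), by line and treatment (x axis). Each point is a library, blue for DMSO and red for SEL120-34A, and the black bars are mean ± SD of 3 libraries. Treated libraries lie at 0.314% to 0.383% in LNCaP and 0.406% to 0.492% in 22Rv1, below all DMSO libraries of their line, while the PC3 points lie at 0.506% and 0.521%.

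In LNCaP, SEL120-34A lowered CDC20, SMC4, BIRC5, UBE2C and PIMREG and raised CKS2. These were 5 lower genes of 42 tested (11.9%), against 0.776% of all genes, and 1 higher gene (2.38%), against 1.99% of all genes, at an edgeR adjusted p under 0.05. The log2 fold change was negative for 37 of the 42 genes, against 49.5% of all genes, with a median of -0.47 against 0.00 for all genes. At an unadjusted p under 0.05 there were 19 genes, against 13.5% of all genes. The libraries of both arms did not overlap for 19 lower genes, against 10.7% of all genes, and for 1 higher gene, against 8.76%. The log2 fold changes of the 42 genes ran from -1.12 (KIF23) to 0.58 (CKS2). Both the DESeq2 Wald test and limma-trend on the deposited log2 values called 1 lower gene, CDC20 in the former and UBE2C in the latter, and 0 higher genes. Of all genes, these tests called 0.254% and 0.114% lower and 1.02% and 0.311% higher. With library totals in place of TMM, 9 of the set were lower, against 1.31% of all genes, and 0 higher, against 1.38%.

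CDC20, the activator of the anaphase-promoting complex (ENSG00000117399.14, chromosome 1, 43358981 to 43363203 in GRCh38), was at 220, 228 and 246 CPM in the LNCaP DMSO libraries and at 74.1, 73.2 and 182 CPM with SEL120-34A, from 156, 87 and 176 counts and 19, 27 and 86 counts. All treated libraries lay below all controls, with replicate 3 far nearer to them than the other two. Its log2 fold change was -0.96 ± 0.20 (SE, edgeR adjusted p = 0.00299), or 0.514 times the DMSO level, and the adjusted p was 0.0915 without LNCaP SEL120-34A replicate 2. UBE2C, the ubiquitin-conjugating enzyme that works with the same complex (ENSG00000175063.17, chromosome 20, 45812576 to 45816957), was at 316, 356 and 373 CPM with DMSO and at 226, 220 and 262 CPM with the inhibitor. The arms did not overlap, and the log2 fold change was -0.52 ± 0.14 (edgeR adjusted p = 0.0325). That call was lost without DMSO replicate 2 (0.108), DMSO replicate 3 (0.211), SEL120-34A replicate 1 (0.116) or SEL120-34A replicate 2 (0.205). The annotation holds 5 pseudogenes named after UBE2C, with which reads may be shared.

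SMC4, a core subunit of the condensin complexes that compact chromosomes (ENSG00000113810.16, chromosome 3, 160399274 to 160434954), was at 73.2, 78.5 and 81.1 CPM in LNCaP with DMSO and at 35.1, 27.1 and 44.4 CPM with SEL120-34A. No treated library reached a control, and the log2 fold change was -1.06 ± 0.26 (edgeR adjusted p = 0.0142). Leaving out DMSO replicate 3 gave 0.0802, and leaving out SEL120-34A replicate 1 or 2 gave 0.0604 or 0.156. With all libraries thinned to the smallest total, the log2 fold change was -0.80 (edgeR adjusted p = 0.306). The gene overlaps IFT80 and TRIM59, and the strand setting of the counting is not given in the sources used here. PIMREG, named as a PICALM-interacting mitotic regulator (ENSG00000129195.16, chromosome 17, 6444441 to 6451469), was at 40.9, 65.5 and 64.3 CPM with DMSO and at 11.7, 27.1 and 31.7 CPM with the inhibitor, where the lowest library had 3 counts. The annotation holds 4 pseudogenes named after PIMREG. The arms did not overlap, and the log2 fold change was -1.11 ± 0.32 (edgeR adjusted p = 0.0472). This call, close to the threshold, was lost without DMSO replicate 2 (0.138) or 3 (0.252) or SEL120-34A replicate 1 (0.237) or 2 (0.141), and also without 22Rv1 DMSO replicate 1 (0.0544) or 3 (0.0527), since all libraries share 1 model, and with thinning (0.0555).

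BIRC5, the survivin subunit of the chromosomal passenger complex (ENSG00000089685.15, chromosome 17, 78214186 to 78225636), was at 296, 267 and 281 CPM in LNCaP with DMSO and at 148, 152 and 218 CPM with SEL120-34A. Again the arms were apart and replicate 3 was the highest treated library. The log2 fold change was -0.65 ± 0.17 (edgeR adjusted p = 0.0229), and it was lost when DMSO replicate 1 (0.0880) or 3 (0.0880) or SEL120-34A replicate 1 (0.132) or 2 (0.189) was left out. CKS2, one of the small CDK-binding subunits (ENSG00000123975.5, chromosome 9, 89311195 to 89316703), went the other way, from 220, 272 and 295 CPM with DMSO to 425, 426 and 313 CPM with SEL120-34A. Its arms were also apart, with replicate 3 the treated library closest to the controls, and the log2 fold change was 0.58 ± 0.16 (edgeR adjusted p = 0.0330). The rise lost its call without DMSO replicate 1 (0.194) or 2 (0.0812) or SEL120-34A replicate 1 (0.189) or 2 (0.241), with library totals in place of TMM (0.0873) and without the low-count filter (0.140).

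**Figure D2:**
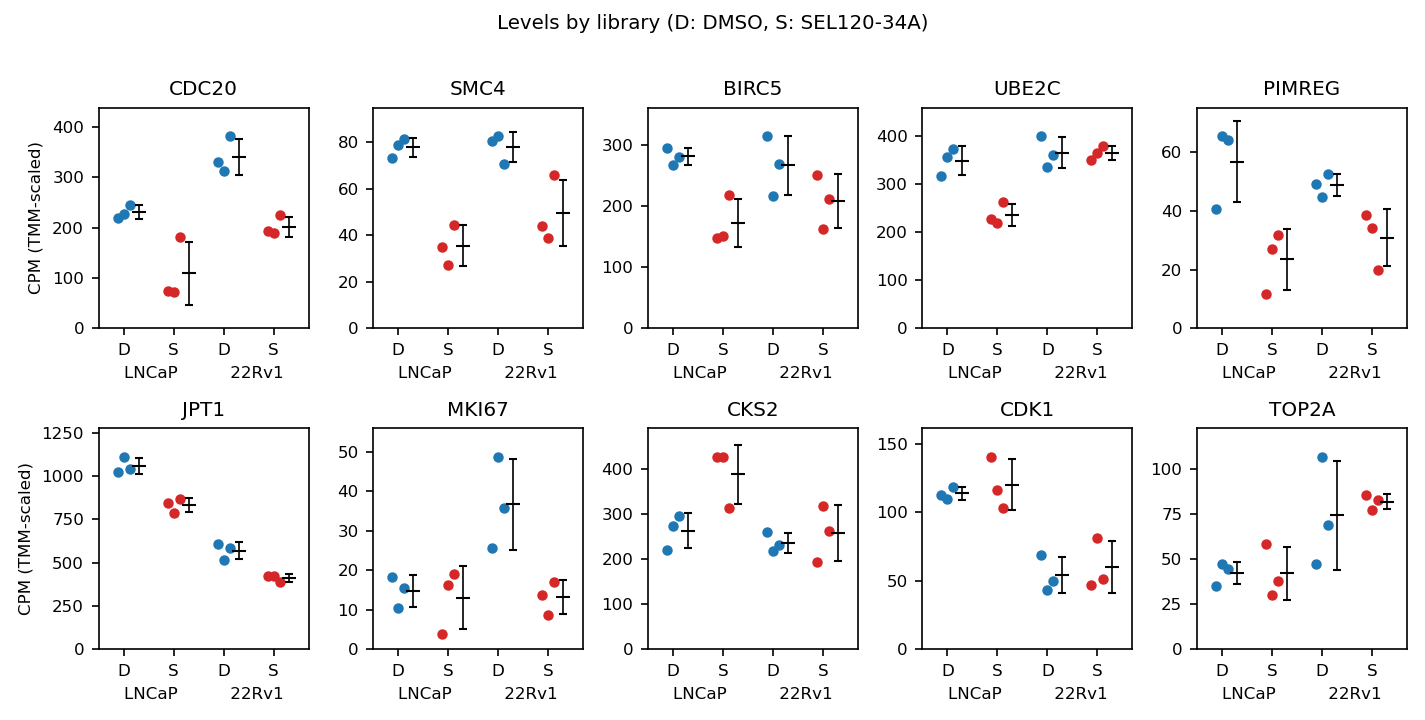
Levels of 10 genes in CPM scaled by TMM (y axes, each starting at 0) in LNCaP and 22Rv1, with D for DMSO (blue) and S for SEL120-34A (red). Each point is a library and the black bars are mean ± SD of 3 libraries. CDC20, JPT1, SMC4 and PIMREG are below their controls in every treated library of both lines. UBE2C is below its controls in LNCaP and overlaps them in 22Rv1, CKS2 is above its controls in LNCaP, and the arms of CDK1 and TOP2A overlap.

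In 22Rv1, SEL120-34A lowered CDC20, JPT1 and MKI67, which were 3 of the 42 genes (7.14%), against 1.55% of all genes. None of the 42 was called higher by edgeR, against 4.15% of all genes. The DESeq2 Wald test and limma-trend called 0 of the set higher, against 2.78% and 1.40% of all genes. By edgeR, 14 of the genes had an unadjusted p under 0.05, against 19.1% of all genes, a count that takes both directions. The log2 fold change was negative for 29 of the 42, against 49.6% of all genes, and the median was -0.22 against 0.00. The arms did not overlap for 13 lower genes, against 10.5% of all genes, and for 0 higher genes, against 12.4%. The range ran from -1.40 (TTK) to 0.46 (CDC25C). Limma-trend called 1 gene lower, JPT1, against 0.685% of all genes. With library totals, 7 of the set were lower, against 3.03% of all genes, and 0 higher, against 2.07%.

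CDC20 was at 330, 313 and 382 CPM in 22Rv1 with DMSO and at 193, 189 and 225 CPM with the inhibitor, from 168, 167 and 320 counts and 70, 44 and 79 counts. The treated libraries were close together and all below the controls. The log2 fold change was -0.74 ± 0.18 (edgeR adjusted p = 0.00966), or 0.598 times the DMSO level. Leaving out DMSO replicate 3 gave 0.0590, and leaving out SEL120-34A replicate 1 or 2 gave 0.0697 or 0.0653. JPT1, a microtubule-associated protein gene (ENSG00000189159.16, chromosome 17, 75135248 to 75168281), was at 609, 515 and 584 CPM with DMSO and at 424, 425 and 385 CPM with SEL120-34A. The arms were apart and tight, and the log2 fold change was -0.46 ± 0.13 (edgeR adjusted p = 0.0264). That call was lost without any 1 of 5 libraries of the line, namely DMSO replicates 1 (0.0624) and 3 (0.0733) and SEL120-34A replicates 1 (0.0905), 2 (0.0688) and 3 (0.113), and with thinning (0.0533). JPT1 overlaps SUMO2, and reads at the overlap may belong to either gene.

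MKI67, which encodes the proliferation antigen Ki-67 that coats mitotic chromosomes (ENSG00000148773.14, chromosome 10, 128096659 to 128126423), was at 25.5, 48.7 and 35.8 CPM in 22Rv1 with DMSO and at 13.8, 8.58 and 17.1 CPM with SEL120-34A. These levels came from 13, 26 and 30 counts and from 5, 2 and 6 counts. The arms did not overlap, and the log2 fold change was -1.39 ± 0.43 (edgeR adjusted p = 0.0464). In LNCaP it had 13, 4 and 11 counts with DMSO and 1, 6 and 9 with the inhibitor, or 18.3, 10.5 and 15.4 CPM and 3.90, 16.3 and 19.0 CPM, with overlapping arms and a log2 fold change of -0.06 ± 0.48 (edgeR adjusted p = 0.979). The call in 22Rv1 was lost without DMSO replicate 2 (0.158) or 3 (0.0990) or SEL120-34A replicate 1 (0.155), 2 (0.198) or 3 (0.0732), and narrowly without replicates 2 (0.0510) and 3 (0.0515) of LNCaP with DMSO or replicate 2 (0.050) of LNCaP with SEL120-34A. It was also lost without the low-count filter (edgeR adjusted p = 0.0569) and with limma-trend (limma adjusted p = 0.159).

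CDC20 was the 1 gene called in both lines. A further 5 were called in LNCaP and not in 22Rv1, 2 in 22Rv1 and not in LNCaP, and 34 in neither. The sign was negative in both lines for 28 genes and positive in both for 4, while 9 were negative in LNCaP only and 1 in 22Rv1 only. The shares of all genes called in both lines, or with the same sign in both, were not counted, so these counts have no background beside them. The arms were apart and lower in both lines for 6 genes, which were CCNB1, CDC20, TPX2, JPT1, SMC4 and PIMREG. Of all genes, 10.7% were apart and lower in LNCaP and 10.5% in 22Rv1, and the share in both lines at once was not counted. The mean of the effects in LNCaP and 22Rv1, tested in the same model, was called lower for 10 of the 42 genes (23.8%), against 2.13% of all genes, and higher for 0, against 3.88% of all genes. At an unadjusted p under 0.05 by edgeR there were 23 genes, against 19.9% of all genes. The 10 genes were CDC20, SMC4, JPT1, CCNB1, BIRC5, PIMREG, AURKA, TUBB4B, CKAP2 and TPX2. CDC20 had a mean log2 fold change of -0.85 ± 0.14 (edgeR adjusted p = 4.73e-05) and kept its call under each of 20 alternatives, and JPT1 had one of -0.38 ± 0.09 (edgeR adjusted p = 0.00382) and also kept its call under 20. For SMC4 it was -0.83 ± 0.18 (0.00263), for BIRC5 -0.48 ± 0.12 (0.00801) and for PIMREG -0.89 ± 0.23 (0.0114), with edgeR adjusted p-values in parentheses. The mean call of SMC4 was lost with thinning (edgeR adjusted p = 0.0511), and those of BIRC5 and PIMREG were lost with limma-trend (limma adjusted p = 0.0619 and 0.0657).

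The members of each functional group are described in turn, with genes named outside the rule given in the methods chosen after their values were seen. Among CDK1 and its partners, 6 genes were tested. Cyclin B1, CCNB1, was at 217, 243 and 222 CPM in LNCaP with DMSO and at 97.5, 141 and 207 CPM with SEL120-34A, from 154, 93 and 159 counts and 25, 52 and 98 counts. In 22Rv1 it was at 269, 208 and 254 CPM and at 163, 142 and 188 CPM, from 137, 111 and 213 counts and 59, 33 and 66 counts. The arms were apart in both lines, although neither line passed alone, with log2 fold changes of -0.51 ± 0.18 and -0.54 ± 0.18 (edgeR adjusted p = 0.130 and 0.0642). The mean effect was -0.53 ± 0.13 (edgeR adjusted p = 0.00619), and it was lost with limma-trend (limma adjusted p = 0.0644). Without LNCaP SEL120-34A replicate 3, CCNB1 passed in LNCaP (0.00842) and in 22Rv1 (0.0279). It also passed in 22Rv1 without LNCaP SEL120-34A replicate 1 (0.0420) or 22Rv1 DMSO replicate 2 (0.0367), with library totals (0.0238), with at least 10 counts in every library (0.0239) and with thinning (0.0443). CDK1 itself was at 113, 110 and 119 CPM and at 140, 117 and 103 CPM in LNCaP, from 80, 42 and 85 counts and 36, 43 and 49 counts. In 22Rv1 CDK1 was at 68.7, 43 and 50.1 CPM and at 46.9, 81.5 and 51.3 CPM, from 35, 23 and 42 counts and 17, 19 and 18 counts. Its arms overlapped in both lines, with log2 fold changes of 0.07 ± 0.20 and 0.12 ± 0.26 (edgeR adjusted p = 0.929 and 0.862). Cyclin B2, CCNB2, had log2 fold changes of -0.39 and -0.33 and was not called. CKS2 had a mean log2 fold change of 0.35 (edgeR adjusted p = 0.0648), which passed without LNCaP SEL120-34A replicate 3 (0.0172) or 22Rv1 SEL120-34A replicate 1 (0.0268).

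Of the genes of anaphase and ubiquitin transfer, 3 were tested, and all had negative log2 fold changes in LNCaP, at -0.96 for CDC20, -0.61 for CDCA3 and -0.52 for UBE2C. In 22Rv1 only CDC20 was negative, and UBE2C was at 399, 335 and 359 CPM with DMSO and at 350, 365 and 379 CPM with the inhibitor, with a log2 fold change of 0.02 ± 0.14 (edgeR adjusted p = 0.968).

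The Aurora kinases and the passenger complex had 5 tested genes, all negative in LNCaP (median -0.56) and 4 negative in 22Rv1 (median -0.32), and 3 were lower in the mean effect. AURKA, the Aurora kinase of the spindle poles, was at 76.1, 86.4 and 109 CPM in LNCaP with DMSO and at 54.6, 37.9 and 82.4 CPM with SEL120-34A, from 54, 33 and 78 counts and 14, 14 and 39 counts. In 22Rv1 it was at 82.5, 76.7 and 89.5 CPM and at 41.3, 55.8 and 51.3 CPM, from 42, 41 and 75 counts and 15, 13 and 18 counts. The arms were apart in 22Rv1 and overlapped in LNCaP through replicate 3. The log2 fold changes were -0.56 and -0.76, and the mean effect was -0.66 ± 0.18 (edgeR adjusted p = 0.0169), which lost its call without replicate 3 of LNCaP with DMSO (0.0774), replicate 2 of LNCaP with SEL120-34A (0.0731) or 22Rv1 SEL120-34A replicate 1 (0.0680). With thinning the mean effect was -0.50 (edgeR adjusted p = 0.196), and limma-trend gave a limma adjusted p of 0.0636. In 22Rv1 alone AURKA passed with library totals (edgeR adjusted p = 0.0418) and with at least 10 counts in every library (0.0349). TPX2, the activator of Aurora A on the spindle, had a mean effect of -0.53 ± 0.17 (edgeR adjusted p = 0.0462), close to the threshold. Without 1 library it ranged up to 0.127 (LNCaP DMSO replicate 1), and was over the threshold also without LNCaP DMSO replicate 2 (0.0627), LNCaP SEL120-34A replicates 1 (0.0680) or 3 (0.114), 22Rv1 DMSO replicates 2 (0.0530) or 3 (0.123), or 22Rv1 SEL120-34A replicates 1 (0.0517), 2 (0.0939) or 3 (0.117). DESeq2 size factors (0.0512), no filter (0.0538), thinning (0.0569), the DESeq2 Wald test (0.108) and limma-trend (0.0631) also put it over the threshold. AURKB, the kinase of the passenger complex, was not called, with values of -0.74 (LNCaP) and 0.34 (22Rv1).

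The kinesins and spindle proteins had 10 tested genes of 16, of which 9 were negative in each line, with medians of -0.45 and -0.33. Besides JPT1, 2 of them were lower in the mean effect. TUBB4B, a beta-tubulin, was at 638, 626 and 639 CPM with DMSO and at 382, 428 and 515 CPM with SEL120-34A in LNCaP, and at 970, 679 and 974 CPM and 706, 652 and 850 CPM in 22Rv1. Its arms were apart in LNCaP only, and the mean effect was -0.35 ± 0.10 (edgeR adjusted p = 0.0215). That call was lost without LNCaP SEL120-34A replicate 1 (0.0558), 22Rv1 DMSO replicate 3 (0.0685) or 22Rv1 SEL120-34A replicate 1 (0.0655) or 2 (0.0675), or with limma-trend (0.0948). The log2 fold change in LNCaP alone, -0.48 (edgeR adjusted p = 0.0576), passed without LNCaP SEL120-34A replicate 3 (0.0210), 22Rv1 DMSO replicate 2 (0.0264) or 22Rv1 SEL120-34A replicate 2 (0.0427) or 3 (0.0453), with library totals (0.0216), with no filter (0.0243) and with thinning (0.0103). Tubulin genes have near-identical copies, and the annotation holds 8 pseudogenes named after TUBB4B, so its level is uncertain. CKAP2, a microtubule-stabilising protein of the spindle, had a mean effect of -0.60 ± 0.17 (edgeR adjusted p = 0.0310). It lost this call without LNCaP DMSO replicate 2 (0.0663), LNCaP SEL120-34A replicate 1 (0.0913) or 2 (0.0910), 22Rv1 DMSO replicate 3 (0.0776) or 22Rv1 SEL120-34A replicate 1 (0.101) or 2 (0.109), and it passed in 22Rv1 alone without LNCaP SEL120-34A replicate 3 (0.0383) or 22Rv1 SEL120-34A replicate 3 (0.0202), and with library totals (0.0360). The mean call was also lost with thinning (0.101), the DESeq2 Wald test (0.0535) and limma-trend (0.0880).

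Among the 7 tested genes of chromosomes and chromatin, 6 were negative in each line. TOP2A, the topoisomerase that untangles sister chromatids, was at 35.2, 47.1 and 44.7 CPM and at 58.5, 29.8 and 38.0 CPM in LNCaP, from 25, 18 and 32 counts and 15, 11 and 18 counts. In 22Rv1 TOP2A was at 47.1, 107 and 69.2 CPM and at 85.4, 77.3 and 82.7 CPM, from 24, 57 and 58 counts and 31, 18 and 29 counts. Its arms overlapped in both lines, with log2 fold changes of -0.02 ± 0.31 and 0.16 ± 0.25 (edgeR adjusted p = 0.993 and 0.793).

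No gene of the other groups was called in a line or in the mean effect. These were 3 checkpoint and centrosome kinases, 5 tested genes of the centromere and kinetochore and 3 of cytokinesis. Their log2 fold changes ran in LNCaP from -1.05 (BUB1), -0.82 (NUF2) and -1.12 (KIF23) to -0.03 (TTK), 0.34 (NDC80) and -0.35 (ECT2) in these 3 groups. In 22Rv1 the lowest values of the groups were -1.40 (TTK), -0.75 (CENPA) and -0.87 (KIF23). TTK had 16, 18 and 30 counts with DMSO and 8, 0 and 4 with SEL120-34A in 22Rv1 (edgeR adjusted p = 0.0869). The 9 genes that were not tested were G2E3, CENPE, KIF11, KIF20B, NUSAP1, CKAP2L, DLGAP5, GAS2L3 and CDCA2. They had at most 24 counts in a library of LNCaP or 22Rv1, and NUSAP1 had 3 counts over all 14 libraries.

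**Figure D3:**
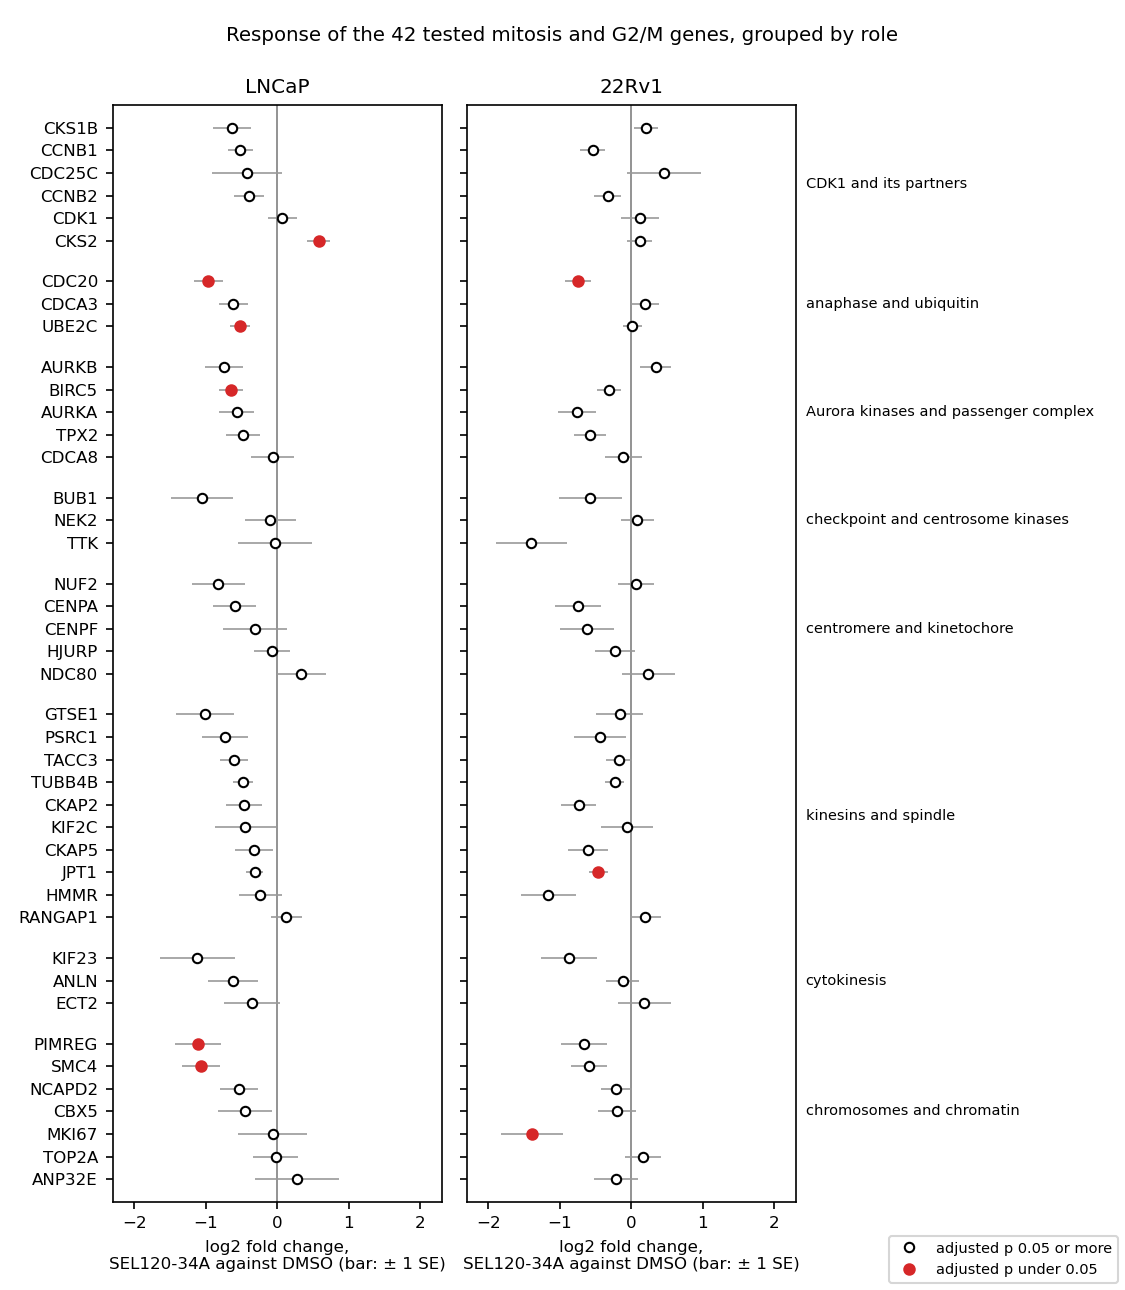
Log2 fold change of SEL120-34A against DMSO (x axis, bar ± 1 SE from edgeR) for the 42 tested genes in LNCaP and 22Rv1, grouped by role (y axis). Red points have an edgeR adjusted p under 0.05 and open points do not. In LNCaP 37 points lie left of 0, with a median of -0.47, and in 22Rv1 29 points do, with a median of -0.22.

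In the edgeR test of the difference between the responses of both lines, 0 of the 42 genes were called, against 0.734% of all genes called. The smallest edgeR adjusted p was 0.166 (AURKB), and 4 genes (9.52%) had an unadjusted p under 0.05, against 11.4% of all genes. These were AURKB, CDCA3, UBE2C and CKS1B. The DESeq2 Wald test and limma-trend also called 0, where the share of all genes was not counted. AURKB was at 62.0, 73.3 and 71.3 CPM and at 39.0, 37.9 and 42.2 CPM in LNCaP, and at 82.5, 89.8 and 89.5 CPM and 154, 85.8 and 82.7 CPM in 22Rv1. Its arms were apart in LNCaP and overlapped in 22Rv1, where treated replicate 1 was high, and the difference of the log2 fold changes was -1.08 ± 0.35. For UBE2C, called in LNCaP only, the difference was -0.54 ± 0.20 (edgeR adjusted p = 0.261). For MKI67, called in 22Rv1 only, it was 1.33 ± 0.67 (edgeR adjusted p = 0.450). The differences of the 42 genes ran from -1.08 to 1.37 (TTK).

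Cells given DMSO differed between the lines in 17 of the 42 genes (40.5%), of which 15 were lower and 2 higher in LNCaP than in 22Rv1, against 25% and 24% of all genes called lower and higher. CKS1B, the other CKS subunit, was at 58.7 ± 10.4 CPM (SD, n = 3) in LNCaP and 190 ± 33.8 CPM in 22Rv1, a log2 difference of -1.64 ± 0.18 (edgeR adjusted p = 9.21e-10). The annotation holds 7 pseudogenes named after CKS1B and 3 named after NEK2, with which reads may be shared. ANP32E, a chaperone of the histone variant H2A.Z, was at 9.03 ± 4.48 and 55.6 ± 19.99 CPM, a log2 difference of -2.66 ± 0.37 (edgeR adjusted p = 1.42e-07). NEK2, a centrosome kinase, was at 26.1 ± 6.59 and 90.7 ± 5.49 CPM, a log2 difference of -1.77 ± 0.25 (edgeR adjusted p = 1.87e-07). Lower in LNCaP were also ANLN, the anillin of the cleavage furrow (-1.40), CBX5, which encodes the heterochromatin protein HP1 alpha (-1.38), and NUF2, a subunit of the NDC80 complex (-0.94), with edgeR adjusted p-values of 4.44e-06, 3.68e-05 and 0.00227. The 2 genes with higher levels in LNCaP were JPT1, at 1058 ± 46.2 against 569 ± 48.7 CPM (0.89 ± 0.12, edgeR adjusted p = 2.77e-08), and CDK1, at 114 ± 4.55 against 54.0 ± 13.3 CPM (1.10 ± 0.21, edgeR adjusted p = 2.57e-05). These contrasts share their DMSO libraries with the responses above.

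**Figure D4:**
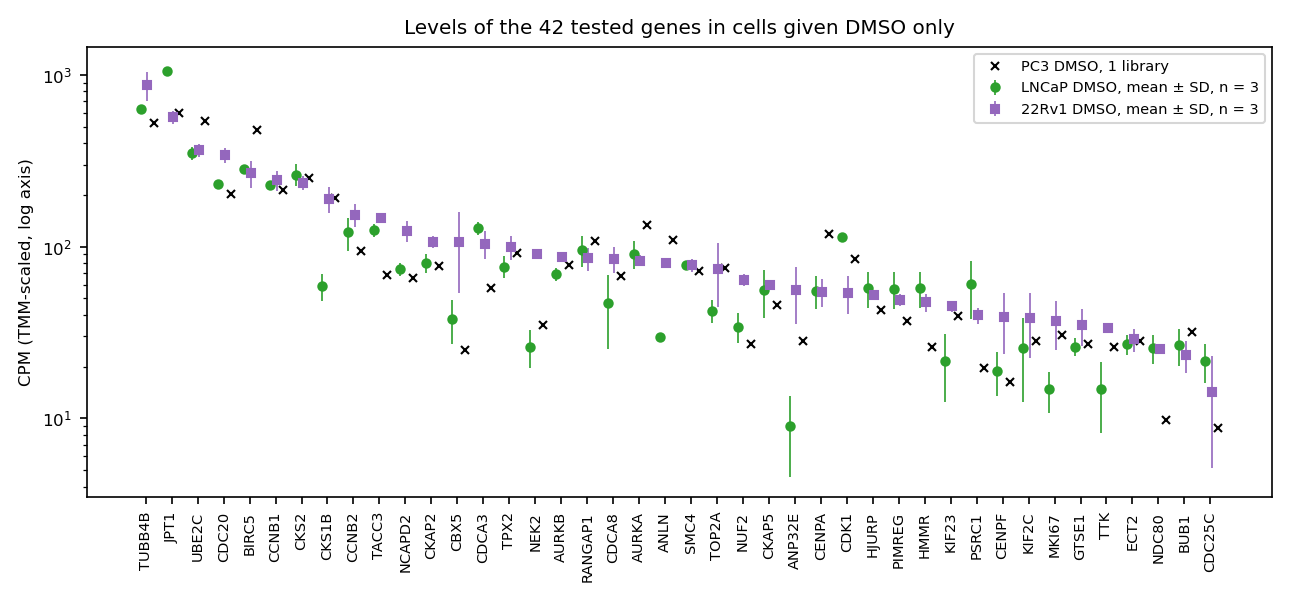
Levels of the 42 tested genes in cells given DMSO, in CPM scaled by TMM (y axis, log scale), ordered by the mean in 22Rv1 (x axis). Green circles are LNCaP and purple squares 22Rv1 (mean ± SD, n = 3), and crosses are the single PC3 library. LNCaP lies far below 22Rv1 for CKS1B, NEK2 and ANP32E and above it for JPT1 and CDK1.

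The log2 ratios of the set in PC3 lay about evenly on both sides of 0. With 1 library per arm there was no test and no replicate check, and 48 of the 51 genes were in the filtered table of 9638 genes. Of these, 25 had a log2 ratio of SEL120-34A to DMSO under 0 and 23 over 0, with a median of -0.01 against 0 for all genes. None of these 48 was past 2-fold, against 2.85% of all genes lower and 1.83% higher, and the ratios ran from -0.79 (GAS2L3) to 0.99 (CDC25C). The 3 genes outside that table were CDCA2, with 16 counts with DMSO and 0 with SEL120-34A, KIF20B, with 11 and 5, and NUSAP1, with 1 and 0. CDC20 was at 203 CPM with DMSO and 251 CPM with the inhibitor (186 and 143 counts), and BIRC5 was at 477 and 566 CPM. CCNB1 was at 212 and 177 CPM, AURKA at 134 and 160, CDK1 at 84.9 and 84.2, TOP2A at 75.1 and 57.9 and MKI67 at 30.5 and 28.1. Whether PC3 differed from the other lines in these genes was not tested.

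Other genes of the cell cycle and its control, from lists of known function, are given for comparison. These lists too were chosen with earlier results of these data known. Of 46 tested mitosis genes outside the set, LNCaP had 4 lower and 0 higher genes, with 39 negative and a median log2 fold change of -0.47, against 0.776% lower, 1.99% higher and 49.5% negative of all genes. The 4 were ZWINT, a kinetochore protein (-0.89, edgeR adjusted p = 0.00265), the tubulins TUBA1B (-0.57, 0.0129) and TUBB (-0.51, 0.0187), and the kinesin KIF22 (-0.82, 0.0229). In 22Rv1 there were 5 lower and 0 higher genes, with 25 negative and a median of -0.09, against 1.55% lower, 4.15% higher and 49.6% negative of all genes. The 5 were ASPM, a spindle-pole protein (-2.18, edgeR adjusted p = 0.00460), the kinesin KIF20A (-1.56, 0.0127), the importin KPNA2 (-0.63, 0.0165), the mitotic kinase PLK1 (-0.73, 0.0420) and ARHGAP11A (-1.55, 0.0496). PLK1 had a log2 fold change of -0.81 in LNCaP (edgeR adjusted p = 0.0783). The same shares of all genes apply to the next lists. Of 48 tested DNA replication genes, RRM2 (-1.19, edgeR adjusted p = 1.62e-04) and TK1 (-0.53, 0.0335), both of nucleotide supply, were lower in LNCaP, and the helicase subunit MCM4 (-0.95, 0.00181) in 22Rv1, with medians of -0.36 and -0.04. None was called higher in either line. Of 18 tested regulators of mitotic transcription, the activator MYBL2 was lower in LNCaP (-0.97, edgeR adjusted p = 0.0344) and the CDK inhibitor CDKN1A higher (0.85, 0.00801). In 22Rv1 1 regulator was called lower and 0 higher, with MYBL2 at -0.15 (edgeR adjusted p = 0.800) and CDKN1A at 0.68 (0.265). FOXM1 was at 83.1, 57.6 and 96.5 CPM with DMSO and at 70.2, 81.3 and 52.8 CPM with SEL120-34A in LNCaP, a log2 fold change of -0.26, and its change in 22Rv1 was -0.38 (edgeR adjusted p = 0.713 and 0.334). Many of these calls depended on single libraries. TK1 lost its call without any 1 of the 6 LNCaP libraries (edgeR adjusted p = 0.0829 to 0.116). MYBL2 lost it without DMSO replicate 1 (0.165) or 3 (0.129) or SEL120-34A replicate 2 (0.198) or 3 (0.195). Leaving out 1 library could also lose the calls of ZWINT, TUBA1B, TUBB, KIF22 and CDKN1A in LNCaP. The same held for KIF20A, KPNA2, PLK1 and ARHGAP11A in 22Rv1, where PLK1 was lost under 8 of 19 alternatives and ARHGAP11A under 10 of 18. The calls of RRM2, MCM4 and ASPM were lost with limma-trend only (limma adjusted p = 0.0632, 0.0904 and 0.0512).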

How the data were processed

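Samples were grouped and numbered by their labels. BRB-seq reads were aligned and counted by the authors with STARsolo (GRCh38.p13, GENCODE release 43, per the labels and methods), and raw counts of 62703 genes were deposited. No source used here states whether molecular identifiers were collapsed, and all intervals and floors reflect counting error alone. A table of log2 CPM for 9638 genes, also deposited, was used for 1 alternative and for the PC3 gene set.

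Counts of the 12 LNCaP and 22Rv1 libraries were fitted with edgeR 4.0.16 in R 4.3.3 with 1 mean per group (TMM, low-count filter, quasi-likelihood F-test, 8 residual degrees of freedom, common biological coefficient of variation 11.1%). Contrasts were the effect in each line, their difference, their mean, and LNCaP against 22Rv1 in DMSO. P-values were adjusted by Benjamini-Hochberg over 7086 genes (threshold 0.05). Standard errors are the absolute log2 fold change divided by the square root of F. PC3 log2 ratios used a prior count of 2. These ratios and all CPM used TMM factors from all 14 libraries over 9638 genes. The fits used factors from the 12 libraries over 7086 genes. Within each group, replicates differed by more than counting error (chi-square per degree of freedom 1.29 to 2.44).

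Coordinates came from GENCODE release 44 and matched 51 of 51 genes with the same version. The set and all lists were chosen with earlier results of these data known. Named genes were those called in a line, in the mean effect or in the difference, plus CDK1, CCNB1, AURKA, TOP2A and MKI67. In DMSO cells the 8 with the smallest adjusted p were named, and in other lists at most 5 called genes per contrast plus FOXM1, MYBL2, PLK1 and CDKN1A. The result of 1 regulator is not reported here. Alternatives were DESeq2 1.42.0 size factors and its Wald test, library totals, other filters, a replicate block, limma-trend (limma 3.58.1), thinning and leaving out each library.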

Additional observations from a re-analysis of the deposited data

Results flagged for a closer look

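KIF22, a kinesin of chromosome arms from the list of mitosis genes outside the set, had an effect that differed between the lines, with a log2 fold change of SEL120-34A in LNCaP minus that in 22Rv1 of -1.14 ± 0.29 (edgeR adjusted p = 0.0450). It was at 146, 147 and 112 CPM with DMSO and at 50.7, 92.2 and 73.9 CPM with the inhibitor in LNCaP, where the arms did not overlap. In 22Rv1 it was at 110, 144 and 109 CPM with DMSO and at 124, 176 and 154 CPM with the inhibitor, where they did. The call of the difference was lost under 14 of 20 alternatives, with edgeR, DESeq2 or limma adjusted p-values from 0.0122 to 0.313. Among the libraries, it was lost when the library left out was LNCaP DMSO replicate 1 (0.137) or 2 (0.0981), replicate 1 (0.167) or 3 (0.0870) of LNCaP with SEL120-34A, 22Rv1 DMSO replicate 1 (0.123) or 3 (0.134), or 22Rv1 SEL120-34A replicate 2 (0.136) or 3 (0.0809).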

How the results depend on the processing

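No log2 fold change reversed its sign where it was called in the main setting or in the alternative. Of 1933 values over results and alternatives, 1645 were rated the same, 180 lost a call, 33 gained one and 75 moved. A change of sign in a gene called in neither setting was rated the same. Counts of genes were rated as moved when they changed by over 1.5 times or from 0. Shares and PC3 medians were rated by size, so a PC3 median of -0.01 that became 0.01 was rated the same. With library totals in place of TMM, which shifted the median of all genes by -0.09 in LNCaP and -0.13 in 22Rv1, 9 of the set were lower and 0 higher in LNCaP, 7 lower in 22Rv1 and 16 lower in the mean effect, while all genes called lower rose to 1.31%, 3.03% and 4.93%. The medians of the set were then -0.56 and -0.36. Without a filter, 0 were higher in LNCaP, against 0.528% of all genes. With at least 10 counts in every library, which left 17 of the set, 3 were lower in LNCaP and 5 in 22Rv1. The shares of all genes left by that filter were 1.57% and 4.74%. In DMSO 8 of the 17 differed between the lines. The DESeq2 Wald test gave 1 lower and 0 higher in LNCaP, against 0.254% and 1.02% of all genes. Limma-trend gave 1 lower and 0 higher in LNCaP, against 0.114% and 0.311% of all genes. It also gave 1 lower in 22Rv1 (against 0.685%), 4 lower in the mean effect (against 0.944%) and 11 different in DMSO. Thinning to the smallest total gave 11 different in DMSO. The share of all genes different in DMSO was not counted under these alternatives. The causes of these changes were not tested, except that the strict filter left fewer genes.

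Whether replicate numbers pair the samples could not be settled, since the labels do not say and each arm had only 3 libraries. Deviations of same-numbered libraries correlated at 0.0847, -0.0479 and 0.115 in LNCaP and 0.0208, -0.0128 and 0.0334 in 22Rv1, and not every library correlated best with its own number. With the replicate block, 6 of the set were lower in 22Rv1 (against 1.86% of all genes), among them CCNB1 (edgeR adjusted p = 0.0421) and CKAP2 (0.0478). TUBB4B passed as lower in LNCaP (0.0261) and CKS2 as higher in the mean effect (0.0489). In the mean effect the set had 0 higher genes without the block and 1 with it, against 3.88% and 4.40% of all genes.

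With 1 library left out, the set had 0 to 7 lower and 0 to 1 higher genes in LNCaP, and 0 to 6 lower and 0 higher in 22Rv1. It had 7 to 12 lower in the mean effect, 15 to 18 different in DMSO and 0 in the difference between effects. The share of all genes called was not counted with 1 library left out. The lowest counts were without LNCaP SEL120-34A replicate 2 (0 lower in LNCaP) and without 22Rv1 DMSO replicate 3 or SEL120-34A replicate 1 or 2 (0 lower in 22Rv1). LNCaP SEL120-34A replicate 3 gave the highest count in 22Rv1 when left out (6). Totals of 246063 to 909176 counts limit genes such as MKI67, with 2 to 6 counts in treated 22Rv1 libraries. In PC3 the median was -0.01 to 0.01 with other settings of prior count and filter and -0.05 with library totals, and a prior count of 0.5 put 1 gene lower and 1 higher past 2-fold.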
